A study of Mus musculus with 11 samples.

Results

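The nuclei described here are the astrocytes of the main astrocyte cluster of a mouse brain single-nucleus RNA sequencing data set. They are the nuclei that the authors' deposited annotation names astrocytes and places in cluster 4. There were 11208 of them among 110304 nuclei, or 10.2%. They made up 88.1% of the 12720 nuclei named astrocytes and 97.4% of the 11506 nuclei of cluster 4. Most of the remaining nuclei named astrocytes lay in cluster 5 (913 nuclei, 7.18%), and smaller numbers lay in clusters 8 (227) and 6 (207). The other nuclei of cluster 4 were mainly named leptomeningeal cells (159), neurons (75) and pericytes (28).

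The study compared intravenous treatments aimed at Malat1, a nuclear long non-coding RNA, in mice homozygous for a knock-in of the human transferrin receptor (TfR). Dosing was weekly, 4 times in all, with tissue collection 72 h after the final dose. The control, ATV:BACE1 (57 mg/kg), binds the TfR through its transport vehicle (TV) and carries no antisense oligonucleotide (ASO). OTV:Malat1 (60 mg/kg) couples a Malat1 ASO to the vehicle, nonTV:Malat1 (60 mg/kg, titled RSV-ASO) is the conjugate named as lacking the vehicle, and Malat1 ASO (2.5 mg/kg) is the oligonucleotide alone. The first 3 groups had 3 libraries each, numbered 1, 4 and 5, and Malat1 ASO had libraries 1 and 5; its replicate 4 was not analysed here. Libraries numbered 1 come from females aged 2.33 months, those numbered 4 from males aged 2.57 months and those numbered 5 from males aged 2.33 months, and the deposited batch numbers follow the replicate numbers. Batch and replicate number therefore cannot be told apart. Replicates 1 and 5 share an age and replicates 4 and 5 a sex, while 1 and 4 differ in both. The sample labels give the brain region as posterior, whereas the deposited metadata give cortex and the strain C57BL/6J. By the labels every group carries the knock-in, which the metadata strain does not name, and these conflicts between the sources were not resolved. The labels do not say whether each library came from 1 animal, and p-values measure the spread between libraries. In fits with the replicate number as block, they measure the spread left between libraries after replicate differences are taken out.

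Astrocytes are the glial cells that take up synaptic glutamate and potassium, pass metabolites through gap junctions, cover blood vessels with their endfeet and supply neurons with lipids and lactate. Malat1 is one of the most abundant RNAs of mammalian nuclei and gathers at nuclear speckles, where splicing factors are stored. An ASO with a DNA core binds its target RNA and recruits RNase H1, which cuts the RNA, and a TfR-binding vehicle is meant to carry such cargo across the endothelium of brain capillaries.

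The class held 17704475 unique molecular identifiers (UMIs, counted RNA molecules), from 671546 in OTV:Malat1 replicate 5 to 2998549 in nonTV:Malat1 replicate 1. Libraries held 703 to 1592 of these nuclei, with a median of 862 to 1675 UMIs per nucleus. OTV:Malat1 replicate 5 was the shallowest library in nuclei, UMIs and median UMIs. Over all members the median was 1384 UMIs and 938 genes, against 3162 UMIs for nuclei outside the class. Doublet calls covered 0.678% of members and 10.4% of all nuclei. Of the 11186 barcodes of the members, 22 occurred in more than 1 library. Members were 9.43% ± 1.68 (SD, n = 3) of ATV:BACE1 nuclei, 12.3% ± 4.12 of nonTV:Malat1, 9.80% ± 4.10 of OTV:Malat1 and 10.1% ± 3.82 (n = 2) of Malat1 ASO nuclei. The groups overlapped, and exact two-sided permutation tests against the control gave p = 0.4, 1 and 1. That test does not use the replicate numbers. Within replicates 1, 4 and 5 the share was 10.6%, 10.2% and 7.501% in ATV:BACE1 and 16.5%, 12.1% and 8.25% in nonTV:Malat1, higher in each of the 3 pairs. It was 11.8%, 12.5% and 5.08% in OTV:Malat1, and 12.8% and 7.44% in Malat1 ASO replicates 1 and 5, higher in some pairs and lower in others. With 3 libraries against 3 the smallest p is 0.1, and with 2 against 3 it is 0.2.

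The 6 markers used for the class were enriched in it. Levels are given as UMIs of a gene scaled to a fixed total per library (CPM), as the mean and SD of the 3 ATV:BACE1 libraries. Each is followed by the ratio of the pooled CPM of the class to that of all other nuclei. CPM were not divided by gene length, so where genes are ordered by level, the order is one of UMIs counted and not of transcripts per length. Slc1a2 and Slc1a3, the glutamate transporters GLT-1 and GLAST, stood at 6074 ± 782 CPM (16.1-fold) and 1732 ± 204 CPM (25.7-fold). Aqp4, the water channel of the endfeet, stood at 270.4 ± 29.2 CPM (20.5-fold), and Gja1, the gap junction protein connexin 43, at 318 ± 45.4 CPM (17.5-fold). Aldh1l1, a folate enzyme, stood at 128 ± 0.931 CPM (17.4-fold) and the bicarbonate cotransporter Slc4a4 at 2068 ± 224 CPM (7.47-fold). These genes took part in the authors' clustering, so the ratios describe the class and are not tested. A UMI of Slc1a2 was found in 96.6% of members and in 46.0% of other nuclei. The values were 82.5% and 13.7% for Slc1a3, and 26.9% and 4.16% for Aqp4. The shares outside the class come from deeper nuclei, and in droplet data they include free RNA.

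The 20 genes with the largest ratio among the 4015 genes of at least 50 CPM ran from 26.1-fold to 41.2-fold. They included Gli2, a transcription factor of the hedgehog pathway (290.2 CPM pooled, 35.8-fold), and Fgfr3, a fibroblast growth factor receptor (219 CPM, 28.8-fold). Acsbg1, an acyl-CoA synthetase (347 CPM, 32.9-fold), Etnppl, which degrades phosphoethanolamine (169.9 CPM, 34.6-fold), and Phkg1, the catalytic subunit of phosphorylase kinase (684 CPM, 26.1-fold), are metabolic enzymes. Dio2, which activates thyroid hormone, stood at 67.8 CPM (26.2-fold) and Aqp9, a channel for glycerol and water, at 74.8 CPM (35.1-fold). The lists of the 20 genes of highest level and of highest ratio shared 20 and 19 genes with those of all nuclei named astrocytes.

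**Figure D1:**
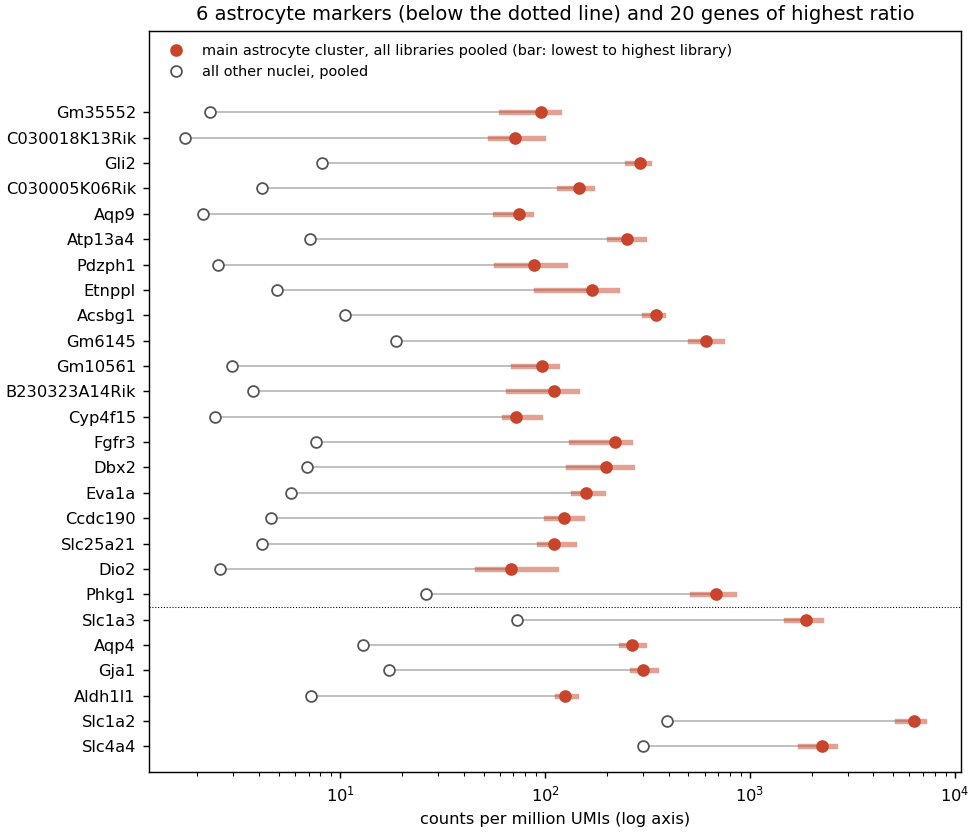
Levels of the 6 astrocyte markers and of the 20 genes with the largest ratio, in CPM on a log axis. Filled points are the pooled class with a bar from the lowest to the highest of the 11 libraries, and open points are all other nuclei pooled; even for Slc4a4, at 7.47-fold the lowest ratio of the markers, the bar lies above the open point.

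The 20 genes of highest level in the control held 17.1% of the UMIs of the class over all 11 libraries pooled, OTV:Malat1 included. In the control libraries alone, Malat1 averaged 10.2% of UMIs. Several of the others encode adhesion molecules of synaptic and glial contacts: Lsamp (11987 ± 1330 CPM, 2.69-fold), Ntm (5907 ± 713 CPM, 3.42-fold) and the glypican Gpc5 (7778 ± 886 CPM, 22.2-fold). Apoe, the main lipid carrier of the brain, stood at 2850 ± 630 CPM (7.74-fold), and Trpm3, a cation channel, at 3894 ± 495 CPM (4.77-fold). Gm42418, a locus on chromosome 17 known to collect ribosomal RNA reads, stood at 3945 ± 1151 CPM.

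RNA of markers of other cell types was present in the class, and none of these markers was at 0. The 10 neuronal markers summed to 1669 CPM, against 27676 CPM in all other nuclei, and ranged from 1253 to 2400 CPM over the libraries. The 7 oligodendrocyte markers summed to 909 CPM (1302 CPM outside), the 7 microglial markers to 160.5 CPM (183 CPM outside) and the 6 endothelial markers to 121 CPM (182 CPM outside). The 5 markers of oligodendrocyte precursors summed to 168 CPM (949.6 CPM outside). Sums were higher in the class than outside it for 4 sets. The 6 ependymal and choroid plexus markers gave 1173 CPM against 548 CPM, of which Ttr, transthyretin, held 1132 CPM. By dosing group this sum was 852 to 1045 CPM in OTV:Malat1, 1187 to 1564 CPM in nonTV:Malat1, 775 to 1739 CPM in ATV:BACE1 and 959.8 to 1150 CPM in Malat1 ASO, with no overlap of OTV:Malat1 and nonTV:Malat1. Ttr had a UMI in 78.1% of members and in 76.5% of other nuclei, so by this share it did not separate the class. Of the other markers of this set, Ccdc153 and Folr1 were higher in the class, at 2.00-fold and 1.54-fold. Dnah12, Cfap54 and Kl were lower, at 0.225, 0.303 and 0.451 times the level outside. The 7 pericyte and smooth muscle markers gave 213 CPM against 79.6 CPM. Pdgfrb (99.4 CPM, 9.86-fold), Atp13a5 (67.2 CPM, 3.96-fold) and Acta2 (3.50 CPM, 1.46-fold) were higher in the class, and Vtn was near level (1.04-fold). Rgs5, Abcc9 and Myh11 were lower, at 0.597, 0.892 and 0.640 times the level outside. The 5 leptomeningeal markers gave 190.0 CPM against 55.1 CPM, led by Ranbp3l (125 CPM). The 6 markers of Bergmann and radial glia gave 246 CPM against 107 CPM, led by Hes5 (129 CPM, 16.3-fold). Hopx (24.9 CPM, 7.33-fold) and Gdf10 (3.50 CPM, 6.78-fold) were also higher in the class. Sept4, Sox11 and Nes were not, at 0.983, 0.827 and 0.966 times the level outside. The leptomeningeal sum was 199 to 240.3 CPM in OTV:Malat1 and 158 to 198.1 CPM in nonTV:Malat1, so that the nearest libraries were almost equal. It was 134 to 179.9 CPM in Malat1 ASO, below every OTV:Malat1 library, and 179.8 to 209.5 CPM in ATV:BACE1. Among single genes, in CPM scaled by the trimmed mean of M-values (TMM), libraries of OTV:Malat1 did not overlap with nonTV:Malat1 for 5.58% and with Malat1 ASO for 14.2%. The marker sums are CPM of the library total, Malat1 included, without TMM. Whether the groups keep this order of sums with TMM was not tested.

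Malat1 was lower in the OTV:Malat1 astrocytes than in those of the other 3 groups, and did not pass the test in the nonTV:Malat1 or Malat1 ASO astrocytes. Malat1 lies on chromosome 19 at 5795690 to 5802672 on the minus strand (GRCm38/mm10, GENCODE M21), where it is annotated as a lincRNA gene. It made up 8.83%, 10.7% and 10.9% of the astrocyte UMIs of ATV:BACE1 replicates 1, 4 and 5. The nonTV:Malat1 shares were 9.78%, 11.02% and 11.4%, and in Malat1 ASO replicates 1 and 5 they were 10.53% and 10.50%. In OTV:Malat1 they were 3.81%, 3.18% and 3.55%. All 3 OTV:Malat1 libraries lay below every other library, and the other groups overlapped.

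The mean share was 10.2% ± 1.16 (SD, n = 3) in ATV:BACE1 and 3.51% ± 0.317 (n = 3) in OTV:Malat1, which is 34.6% of the control. It was 10.7% ± 0.837 (n = 3) in nonTV:Malat1 and 10.5% ± 0.0216 (n = 2) in Malat1 ASO, or 105.6% and 103.5% of the control. In library sums, edgeR with the replicate number as block gave a log2 change of -1.61 (SE 0.154) for OTV:Malat1 against the control (Benjamini-Hochberg adjusted p = 3.78e-08). Within replicates 1, 4 and 5 the log2 ratios were -1.21, -1.75 and -1.62. The same edgeR test gave -1.71 (SE 0.154, adjusted p = 8.81e-09) against nonTV:Malat1 and -1.71 (SE 0.171, adjusted p = 1.19e-07) against Malat1 ASO. For nonTV:Malat1 and Malat1 ASO against the control edgeR gave 0.09 (SE 0.150, adjusted p = 0.996) and 0.10 (SE 0.174, adjusted p = 0.950). The exact permutation test of the library shares gave p = 0.1 for OTV:Malat1 against the control, the smallest that 3 against 3 allows. These comparisons share libraries and are not independent of each other.

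**Figure D2:**
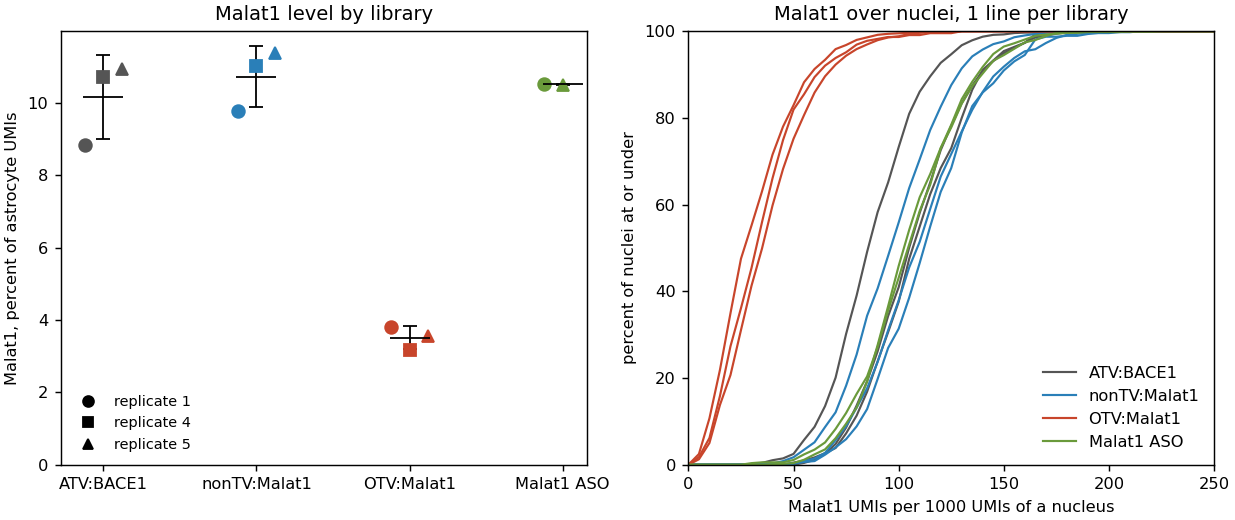
Left, Malat1 as percent of the astrocyte UMIs of each library, with the mean and SD of each group as lines. Right, the percent of nuclei at or under each Malat1 count after thinning to 1000 UMIs, 1 line per library; the 3 OTV:Malat1 lines lie to the left of the other 8, with medians of 27 to 36 against 86 to 113.

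The lower level was seen in most nuclei of the class. Nuclei of at least 1000 UMIs were thinned to 1000 UMIs, which kept 77.1% of members and between 32.3% (OTV:Malat1 replicate 5, 227 nuclei) and 91.0% (nonTV:Malat1 replicate 1) of a library. The median Malat1 count of such a nucleus was 86, 105 and 107 in the control libraries 1, 4 and 5, against 36, 27 and 32 in OTV:Malat1. It was 97, 109 and 113 in nonTV:Malat1, and 103 and 105 in Malat1 ASO. No nucleus of any group was without a Malat1 UMI.

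A nucleus was counted as low in Malat1 at or under 66.6 of 1000 UMIs, the mean over control libraries of their 5th percentile. Low nuclei made up 14.7%, 2.81% and 3.13% of control libraries 1, 4 and 5, against 9.60%, 2.84% and 2.53% of nonTV:Malat1. They made up 89.97%, 94.4% and 92.5% of OTV:Malat1, and 3.82% and 5.87% of Malat1 ASO. The means were 6.87% ± 6.76 in the control and 92.3% ± 2.199 (n = 3 each, exact permutation p = 0.1) in OTV:Malat1. For nonTV:Malat1 and Malat1 ASO the means were 4.99% ± 4.00 and 4.85% ± 1.45 (exact permutation p = 0.6 and 1). Within ATV:BACE1 and within nonTV:Malat1, replicate 1 had the highest share of low nuclei. Leaving out ATV:BACE1 replicate 1 also raised the limit, which the control libraries set, to 72.35 UMIs. Together these turned the differences of nonTV:Malat1 and Malat1 ASO from the control from -1.88 and -2.03 to 3.74 and 3.18 percentage points. At the limit of 66.6, replicate 4 stood at 2.81% in the control and 2.84% in nonTV:Malat1, and replicate 5 at 3.13% in the control, 2.53% in nonTV:Malat1 and 5.87% in Malat1 ASO.

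Relative to its mean, the Malat1 count also varied more among OTV:Malat1 nuclei. The coefficient of variation over thinned nuclei was 0.549, 0.619 and 0.582 in OTV:Malat1 replicates 1, 4 and 5, and 0.220 to 0.254 in the other 8 libraries. The Fano factor (variance over mean, which is near 1 when only counting error acts) was 11.5, 12.1 and 11.9 in OTV:Malat1 and 5.27 to 7.15 in the others. The 3 OTV:Malat1 libraries did not overlap with the rest in either measure.

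Malat1 in OTV:Malat1 stood at 30.2% to 34.8% of the control in astrocytes split by other transcripts, and these ratios were not tested against each other. In nuclei with a UMI of Gfap, the intermediate filament of fibrous astrocytes, the mean Malat1 count per 1000 UMIs was 100.01 ± 13.03 in ATV:BACE1 and 34.5 ± 6.89 in OTV:Malat1, or 34.5% of the control. In nuclei without one it was 101.4 ± 11.6 and 35.1 ± 3.12, or 34.6%. In nuclei with a UMI of Agt, angiotensinogen, a marker of astrocytes outside the telencephalon, it was 94.9 ± 11.6 and 28.6 ± 3.85, or 30.2%, and in nuclei without one 101.8 ± 11.7 and 35.4 ± 3.14, or 34.8%. Nuclei with an Agt UMI had the lower mean in 11 of 11 libraries. In the nuclei named astrocytes outside cluster 4 the OTV:Malat1 mean was 4.14% ± 0.655 of UMIs, 41.5% of the control.

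The Malat1 change was set beside that in 3 other classes of nuclei of the same libraries, and its size passed the test of a difference against neurons and oligodendrocytes but not against vascular endothelium. In 76211 neurons the share of Malat1 was 7.62% ± 0.542 in ATV:BACE1 and 4.83% ± 0.590 (n = 3 each) in OTV:Malat1, or 63.3% of the control. In 14321 oligodendrocytes it was 9.04% ± 0.703 and 1.80% ± 0.260, or 19.9%. In 1106 vascular endothelial nuclei it was 6.24% ± 0.378 and 1.83% ± 0.384, or 29.4%. By these percentages the astrocytes lay between oligodendrocytes and neurons.

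The difference between classes was tested within libraries with edgeR, as the log2 change in astrocytes minus that in the other class. It was -0.91 (SE 0.135, edgeR adjusted p = 3.28e-07) against neurons, where 0.0385% of 20797 genes were called. Without the replicate block the edgeR adjusted p was 0.116, and without OTV:Malat1 replicate 1 or 5 it was 0.206 and 0.0735, with differences of -0.97 and -0.87. Against oligodendrocytes it was 0.82 (SE 0.0965, edgeR adjusted p = 1.90e-08), where 0.0143% of 13983 genes were called. With nuclei under 1000 UMIs left out it was 0.43 (edgeR adjusted p = 1). The oligodendrocytes then stood at 27.0% of the control and the astrocytes at 34.6%. In OTV:Malat1 the Malat1 share of these oligodendrocytes was 2.53% ± 1.05 (SD), from 1.73% to 3.72% over the libraries, a wider spread than over all oligodendrocytes (1.80% ± 0.260). The limit of 1000 UMIs keeps 77.1% of the astrocytes, 45.0% of the oligodendrocytes and 97.0% of the neurons. In counts simulated for the difference from oligodendrocytes, with 195 of 13020 genes changed, the test recovered 37.5% of 2-fold and 80.8% of 4-fold changes. Those counts had the depth of all nuclei, the spread of astrocytes in both classes and no differences shared within a library. The changed genes were drawn at random, so these rates do not give the power for Malat1. Against vascular endothelium the difference was 0.19 (SE 0.384, edgeR adjusted p = 1), and 0.0356% of 11231 genes were called.

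**Figure D3:**
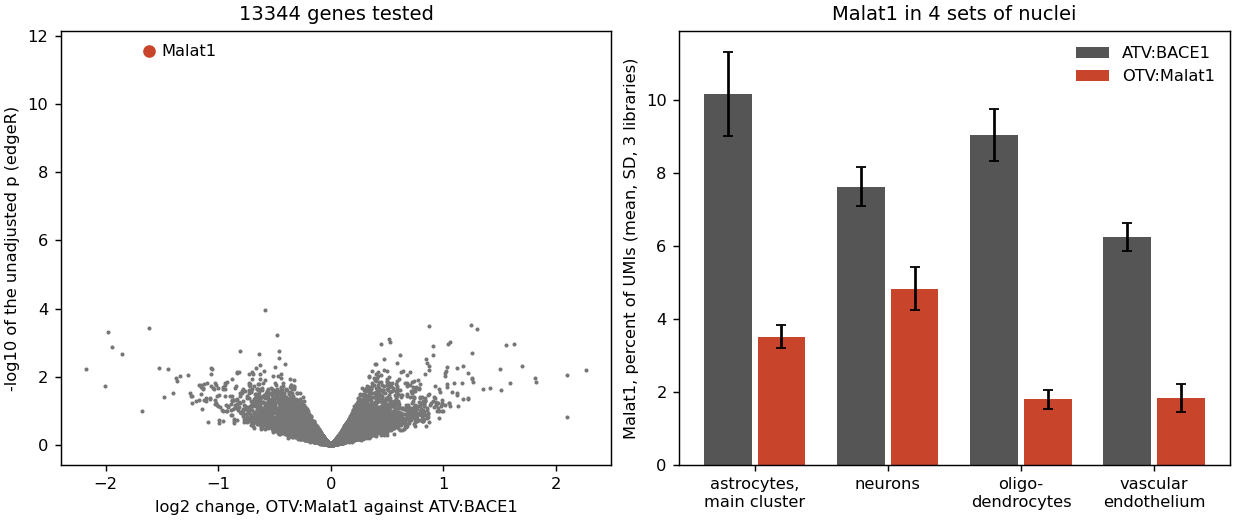
Left, log2 change of OTV:Malat1 against ATV:BACE1 and the negative log10 of the unadjusted p for the 13344 genes tested in astrocytes; Malat1, at -1.61, stands apart. Right, mean and SD of the Malat1 share of UMIs over 3 libraries of each group in 4 classes of nuclei; the astrocytes fell from 10.2% to 3.51%.

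No gene other than Malat1 passed the test in the OTV:Malat1 astrocytes. Of 13344 genes tested with edgeR, Malat1 alone was called against the control at an adjusted p under 0.05, or 0.00749%, and it was also the single gene called against nonTV:Malat1 (0.00749%) and against Malat1 ASO (0.00749%). Unadjusted p-values under 0.05 were found for 477 genes (3.57%) against the control, 508 (3.81%) against nonTV:Malat1 and 622 (4.66%) against Malat1 ASO. Libraries of the groups did not overlap for 5.56%, 5.58% and 14.2% of genes. DESeq2 called no gene other than Malat1 in any of the 3. In counts simulated for the OTV:Malat1 contrast, 200 of 13344 genes were changed and no replicate differences were added. There the same edgeR test recovered 70.0% of 2-fold and 93.0% of 4-fold changes. The adjusted p depends on how many genes change, so these rates do not give the power where few genes change.

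The genes nearest to the threshold against the control, among those whose libraries did not overlap (5.56% of genes), are given as values. For single genes in the dosing comparisons, CPM are scaled by the trimmed mean of M-values (TMM). Camk2a, a kinase subunit of excitatory neurons, was at 136, 163 and 109 CPM in ATV:BACE1 replicates 1, 4 and 5 and at 83.0, 101 and 95.2 CPM in OTV:Malat1. The log2 difference was -0.58 (SE 0.133, edgeR adjusted p = 0.724). Kcnd2, a potassium channel subunit, was at 1358, 1585 and 1184.5 CPM and at 1122, 1100 and 749 CPM, a difference of -0.47 (SE 0.125, edgeR adjusted p = 0.998). The highest OTV:Malat1 library was below the lowest control library for both genes, by a margin smaller than the spread within a group. Coq10b, a coenzyme Q binding protein, differed by 0.87 (SE 0.219), the neurofilament gene Nefh by -1.98 (SE 0.515) and the lincRNA Gm13052 by -1.61 (SE 0.410), with edgeR adjusted p of 0.892, 0.947 and 0.892. Without the low-count filter, Kcnd2 was called against the control, nonTV:Malat1 and Malat1 ASO (-0.49, -0.47 and -0.53, edgeR adjusted p = 0.0134, 0.0181 and 0.0294), and Coq10b against the control (0.86, edgeR adjusted p = 0.0496). Gm13052 differed in nonTV:Malat1 by -1.33 (SE 0.381, edgeR adjusted p = 0.996), from the same control libraries. Against nonTV:Malat1, Ttr was among the genes nearest to the threshold without overlap (5.58% of genes). It was at 1347, 1235 and 1507 CPM in nonTV:Malat1 replicates 1, 4 and 5 and at 811, 906 and 911 CPM in OTV:Malat1, beside 1643, 801 and 1247 CPM in the control. The log2 difference of OTV:Malat1 from nonTV:Malat1 was -0.62 (SE 0.140, edgeR adjusted p = 0.277). It was called without ATV:BACE1 replicate 1 (-0.63, edgeR adjusted p = 0.00116) and without the low-count filter (-0.64, edgeR adjusted p = 7.36e-06; -0.47 and 0.0331 against the control), and not under the other alternatives (-0.84 to -0.48). The part of choroid plexus RNA in this difference was not tested. The haemoglobin gene Hbb-bs, abundant in red blood cells, was high in single libraries. It was at 32.4, 1.55 and 1.09 CPM in ATV:BACE1 replicates 1, 4 and 5, at 0.882, 0.580 and 39.4 CPM in OTV:Malat1, at 1.02 to 1.99 CPM in nonTV:Malat1 and at 0 in both Malat1 ASO libraries. It was called in no comparison with all libraries and the filter (smallest edgeR adjusted p = 0.178). Without the filter it was called lower in nonTV:Malat1 and Malat1 ASO than in the control (edgeR adjusted p = 1.28e-08 and 2.15e-14) and higher in OTV:Malat1 than in both (0.0181 and 6.79e-07). Leaving out ATV:BACE1 replicate 5 gave the first pair of calls too (0.000198 and 9.49e-06). Leaving out OTV:Malat1 replicate 1 gave the second pair (0.0058 and 0.00033) and the call of Malat1 ASO against the control (0.00407).

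In nonTV:Malat1 astrocytes 1 gene was called against the control, or 0.00749%, with 434 genes (3.25%) at an unadjusted p under 0.05. This was Gm38505, a lincRNA gene on chromosome 3, at 2.53, 12.4 and 10.9 CPM in ATV:BACE1 and 14.995, 28.4 and 32.8 CPM in nonTV:Malat1 replicates 1, 4 and 5. The groups did not overlap (6.15% of genes), and the log2 difference was 1.63 (SE 0.295, edgeR adjusted p = 0.0460). The call was lost without any one of ATV:BACE1 replicates 1, 4 or 5, nonTV:Malat1 replicates 1, 4 or 5, or OTV:Malat1 replicate 4 (edgeR adjusted p 0.0652 to 0.825). The difference was 0.21 over all nuclei named astrocytes, 2.48 with called doublets left out and 2.77 at a prediction score of at least 0.9 (edgeR adjusted p = 1.00, 0.000513 and 0.000819). Neither DESeq2 nor edgeR without the block called any gene in this comparison.

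In Malat1 ASO astrocytes 3 genes rose against the control, or 0.0225%, with 924 genes (6.92%) at an unadjusted p under 0.05 and 15.7% without overlap between the groups. Gm47283, a gene near the end of the Y chromosome (90784738 to 90816464), was at 28.8, 3.89 and 55.8 CPM in ATV:BACE1 replicates 1, 4 and 5 and at 153 and 81.2 CPM in Malat1 ASO replicates 1 and 5. It rose by 2.11 on the log2 scale (SE 0.339, edgeR adjusted p = 0.00526). In OTV:Malat1 it was at 79.0, 68.5 and 43.5 CPM, a difference of 1.30 from the same control libraries (edgeR adjusted p = 0.892), which was called without the low-count filter (1.29, edgeR adjusted p = 4.81e-08) and without ATV:BACE1 replicate 5 (1.97, edgeR adjusted p = 0.00775). It was read in female libraries too, so these reads may come from a near-identical copy and its count is uncertain. Adamts18, a metalloproteinase, was at 3.04, 3.11 and 0 CPM in the control and at 22.7 and 6.32 CPM (2.74, SE 0.511, edgeR adjusted p = 0.0297). Gm11250, an antisense gene on chromosome 4, was at 29.9, 21.8 and 22.97 CPM and at 55.2 and 54.1 CPM (1.07, SE 0.202, edgeR adjusted p = 0.0297). The sources used here do not give whether counting used strand.

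The 3 calls rested on single libraries, the normalization and the test, though not to the same extent. DESeq2, edgeR without the block and edgeR without TMM called no gene in this comparison. Without ATV:BACE1 replicate 1 or 4 no gene was called. With ATV:BACE1 replicate 5 left out, Gm47283 was called and the other two were not, and the same held with nonTV:Malat1 replicate 1 left out. Without Malat1 ASO replicate 1, which leaves 1 library in that group, none of the 3 was called, and Tsc22d3 was the 1 gene that passed. Without OTV:Malat1 replicates 1, 4 or 5 there were 10, 5 and 5 calls, which included these 3. Without Malat1 ASO replicate 5, which also leaves 1 library in that group, Gm47283 and Adamts18 differed by 2.51 and 2.83. At a score of at least 0.9 and over all nuclei named astrocytes, Gm47283 alone of the 3 was called. With nuclei under 1000 UMIs left out, Gm47283 and Gm11250 were called and Adamts18 was not. Foxo1, a transcription factor of insulin signalling, did not pass (0.66, SE 0.133, edgeR adjusted p = 0.0583). It was at 190.3, 169 and 138 CPM in the control and at 278 and 232 CPM in Malat1 ASO. It was called with nuclei under 1000 UMIs left out, at a score of at least 0.9, without the low-count filter and without OTV:Malat1 replicate 1 or 5 (edgeR adjusted p = 0.0376, 0.0404, 0.0232, 0.0262 and 0.0363).

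The gene lists for astrocyte functions and states held no called member, other than Malat1, in any of the 5 comparisons. In the OTV:Malat1 astrocytes the medians of the lists lay between -0.13 and 0.14 on the log2 scale, beside 0.01 for all genes. The glutamate and GABA list (15 genes tested) had a median of 0.07 and its members Slc1a2, Slc1a3 and the glutamine synthetase gene Glul changed by 0.03, 0.10 and 0.19 (SE 0.125, 0.113 and 0.123). Medians were -0.01 for potassium, water and pH handling (18 genes), 0.05 for gap junction and cell contact (19), -0.03 for calcium signalling and transmitter receptors (21), -0.09 for cholesterol and lipid (30) and -0.05 for glycolysis, glycogen and lactate (20). Apoe differed by -0.25 (SE 0.131, edgeR adjusted p = 1).

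No tested member of the lists of astrocyte reactivity was called. Gfap, whose protein rises in most brain injuries, was at 112, 91.0 and 99.5 CPM in ATV:BACE1 replicates 1, 4 and 5 and at 96.6, 121 and 107 CPM in OTV:Malat1, a difference of 0.10 (SE 0.146, edgeR adjusted p = 1). The groups overlapped. The medians were -0.01 for the pan-reactive list (8 of 13 genes tested), 0.04 for the neuroinflammatory (7 of 13) and -0.13 for the ischaemia list (4 of 13), and -0.08 for interferon and nucleic acid sensing (13 of 27). The genes not tested did not pass the filter on low counts, C3 and Lcn2 among them, or were not in the matrix, so these lists say little about weakly expressed markers of reactivity.

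The lists on the target and the drugs held no called member other than Malat1 either. Neat1, the neighbouring lncRNA of paraspeckles, was at 219, 230.1 and 265 CPM in the control and at 219, 254 and 243 CPM in OTV:Malat1, a difference of 0.01 (SE 0.118). The Malat1 neighbours and nuclear body RNAs (16 genes other than Malat1) had a median of 0.07, nuclear speckle and splicing genes (30) 0.02, and RNase H and ASO handling genes (22) -0.04. Tfrc, the mouse transferrin receptor gene, differed by -0.37 (SE 0.228) and Bace1, the β-secretase gene, by 0.07 (SE 0.170), in a list of 19 genes with a median of 0.05. Circadian clock genes (18) had a median of 0.05 and immediate early genes (16) of 0.14, with 4 of the latter at an unadjusted p under 0.05, as were 3.57% of all genes. The lists of telencephalic (10), non-telencephalic (12) and white matter or pial astrocytes (18) had medians of 0.13, -0.09 and -0.10.

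In the Malat1 ASO astrocytes the corticosteroid response list stood highest, with a median of 0.29 beside 0.00 for all genes and 8 of 21 members at an unadjusted p under 0.05, as were 6.92% of all genes. Its median was 0.08 in OTV:Malat1 and 0.05 in nonTV:Malat1, from the same control libraries. Tsc22d3, which encodes the glucocorticoid-induced leucine zipper, was at 65.8, 50.5 and 64.5 CPM in ATV:BACE1 replicates 1, 4 and 5 and at 106 and 129 CPM in Malat1 ASO replicates 1 and 5. The difference was 0.85 (SE 0.203), and it did not pass over all genes (edgeR adjusted p = 0.186). Without the low-count filter it was called (edgeR adjusted p = 0.00437), as it was without Malat1 ASO replicate 1 (0.0431), where the lone Malat1 ASO library is assumed to vary like those of the other groups. Both Malat1 ASO libraries were above the control, and nonTV:Malat1 replicate 1 and OTV:Malat1 replicate 1, at 110.1 and 111 CPM, were in the same range. Fkbp5, another gene induced by the glucocorticoid receptor, differed by 0.15 (SE 0.373). In the cholesterol and lipid list 8 of 30 members had an unadjusted p under 0.05 in Malat1 ASO, beside the same 6.92% of all genes, with a median of 0.14.

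More genes were called between replicate numbers than between dosing groups. The F test over replicates 1, 4 and 5 in edgeR, with the dosing group in the model, called 1843 of 13344 genes, or 13.8%. DESeq2 called 677 by its likelihood ratio test. Among the 4015 genes of at least 50 CPM edgeR called 26.6%. Replicate 4 differed from replicate 1 in 1023 genes (7.67%; 564 or 4.23% higher, 459 or 3.44% lower), replicate 5 from 1 in 975 (7.31%; 592 or 4.44% higher, 383 or 2.87% lower) and replicate 5 from 4 in 705 (5.28%; 313 or 2.35% higher, 392 or 2.94% lower). Without nonTV:Malat1 replicate 1, ATV:BACE1 replicate 4 or OTV:Malat1 replicate 4 the F test called 954, 930 and 1096 genes. In counts simulated for this F test, with 200 of 13344 genes changed in replicate 5 only, it recovered 69.0% of 2-fold changes and 95% of 4-fold ones. The adjusted p depends on how many genes change, so these rates do not give the power in the data. Sex, age and batch go with these numbers, and neuronal markers and depth moved with them as well. The summed neuronal markers ran from 1253 to 1638 CPM in replicate 1, from 1540 to 2157 CPM in replicate 4 and from 1692 to 2400 CPM in replicate 5. Microglial markers summed to 114 to 156 CPM in replicate 1, 172 to 176 CPM in replicate 4 and 157 to 237 CPM in replicate 5, and markers of oligodendrocyte precursors to 139 to 162, 149 to 212 and 182 to 235 CPM. The 6 astrocyte markers summed to 10081 to 12385, 11477 to 12541 and 9355 to 9857 CPM. All these sums are CPM without TMM. With TMM factors of 0.921 to 1.11 over the libraries, no order of the replicates is drawn from the astrocyte sums. The part of these sums and of depth in the differences was not tested.

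The genes of the sex chromosomes led the list. Xist, which silences an X chromosome in females, was at 2348 ± 275 CPM in the 4 libraries of replicate 1, at 0.839 ± 0.872 CPM in the 3 of replicate 4 and at 0.340 ± 0.680 CPM in the 4 of replicate 5. Tsix, its antisense partner, was at 209 ± 39.7, 1.57 ± 1.00 and 1.91 ± 1.66 CPM. Without stated strand its reads cannot be told from those of Xist. The Y-linked genes Uty (0.129, 185 and 137 CPM), Eif2s3y (0, 135 and 125 CPM), Ddx3y (0, 94.2 and 72.7 CPM) and Kdm5d (0, 43.2 and 45.9 CPM) had the opposite pattern. Kdm6a, an X-linked histone demethylase that escapes silencing, was at 156 ± 19.4, 105 ± 3.47 and 74.0 ± 4.23 CPM.

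Beyond these, non-coding transcripts were frequent among the genes higher in replicates 4 and 5. Long non-coding or unconfirmed (TEC) transcripts were 10.3% of tested genes, 44.7% of the 722 called genes higher in both 4 and 5 than in 1, and 3.93% of the 509 lower in both. Gm42418, which overlaps AY036118 on chromosome 17, was at 1972 ± 491, 4234 ± 175 and 5023 ± 498 CPM. AY036118 was at 568 ± 161, 1625 ± 102 and 1862 ± 161 CPM. Cmss1, annotated as protein coding, was at 235 ± 56.2, 516 ± 19.3 and 967 ± 86.4 CPM. The imprinted lncRNA Meg3, abundant in neurons, was at 279 ± 27.8, 445 ± 65.0 and 471 ± 75.1 CPM.

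**Figure D4:**
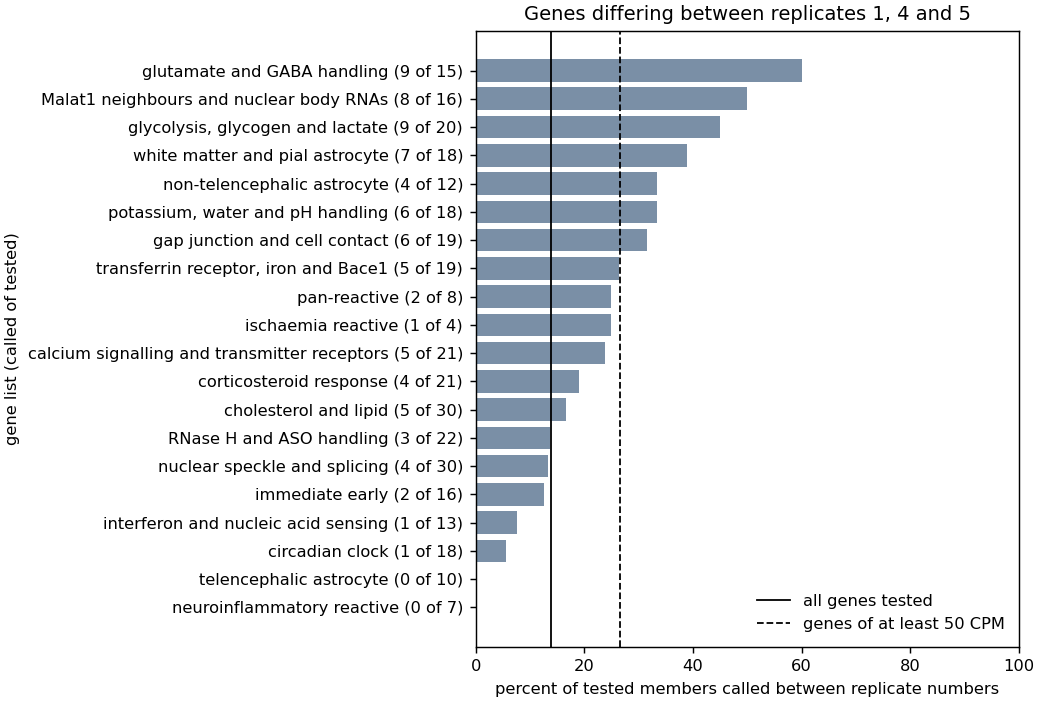
Percent of the tested members of each of the 20 gene lists that edgeR called between replicates 1, 4 and 5, with the number called and tested. The solid line is all genes tested (13.8%), the measure that matches the bars, and the dashed line genes of at least 50 CPM (26.6%). The glutamate and GABA list, at 60.0%, has the longest bar.

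Genes of glutamate and GABA handling differed between replicates in 9 of 15 members tested (60.0%, beside 13.8% of all genes), and 9 of the 13 members of at least 50 CPM were called, beside 26.6% of all genes of that level. Slc7a11, the cystine and glutamate exchanger, was at 568 ± 55.9 CPM in replicate 1 (n = 4), 424 ± 4.73 CPM in replicate 4 (n = 3) and 358 ± 50.2 CPM in replicate 5 (n = 4), with an edgeR adjusted p of 0.000149. Grm3, a metabotropic glutamate receptor, was at 1345 ± 238, 1412 ± 202 and 895 ± 97.3 CPM, and Slc1a3 at 1882 ± 177, 2197 ± 58.3 and 1535 ± 39.0 CPM (edgeR adjusted p = 0.000878 and 0.00398). Glul was at 740.1 ± 125 CPM in replicate 1 and lower, at 509 ± 87.2 CPM, in replicate 5 (log2 -0.54, edgeR adjusted p = 0.00102). The members did not move as 1 group. In replicate 5, 6 members were lower than in replicate 1 and none was higher, beside 2.87% and 4.44% of all genes. In replicate 4, Slc7a11 was lower and the GABA transporter gene Slc6a11 was higher, by 0.48 (edgeR adjusted p = 0.00458), than in replicate 1. The F test no longer called Slc6a11 without nonTV:Malat1 replicate 1 (edgeR adjusted p = 0.0609) or without ATV:BACE1, nonTV:Malat1 or OTV:Malat1 replicate 4 (0.0522, 0.0525 and 0.0563).

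Glycolysis, glycogen and lactate genes were called in 9 of 20 (45.0%, beside 13.8% of all genes). Of the 13 members of at least 50 CPM, 7 were called, beside 26.6% of all genes of that level. In replicate 4, 7 members of the list were lower than in replicate 1, beside 3.44% of all genes. The lactate dehydrogenase gene Ldha was at 39.97 ± 2.61, 19.9 ± 1.65 and 27.4 ± 2.23 CPM and Gapdh at 263 ± 39.2, 185 ± 32.7 and 186 ± 35.1 CPM in replicates 1, 4 and 5 (edgeR adjusted p = 0.000464 and 0.0021). The white matter and pial list had 7 of 18 called (38.9%), among them the helix-loop-helix regulator gene Id3 at 205 ± 16.5, 133 ± 2.92 and 148 ± 18.7 CPM. Of its 12 members of at least 50 CPM, 6 were called. The Malat1 neighbours and nuclear body RNAs had 8 of 16 (50%), which include Xist and Meg3, and 7 of the 8 of at least 50 CPM. Fth1, the ferritin heavy chain gene, was at 1609 ± 314, 1044 ± 116 and 1193 ± 153 CPM. Its list of transferrin receptor, iron and Bace1 genes had 5 of 19 called (26.3%, beside 13.8% of all genes). Of the 7 members of at least 50 CPM, 4 were called, beside 26.6% of all genes of that level. DESeq2 did not call Fth1 (adjusted p = 0.0673).

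The remaining lists are given by their counts over all tested members, beside 13.8% of all genes. Counts were 6 of 18 for potassium, water and pH handling, 6 of 19 for gap junction and cell contact, 4 of 12 for non-telencephalic astrocytes, 5 of 21 for calcium signalling and transmitter receptors and 4 of 21 for the corticosteroid response. They were 5 of 30 for cholesterol and lipid, 4 of 30 for nuclear speckle and splicing, 3 of 22 for RNase H and ASO handling, 2 of 16 for immediate early genes, 1 of 18 for the circadian clock and 1 of 13 for interferon and nucleic acid sensing. Reactive lists had 2 of 8 (pan-reactive), 1 of 4 (ischaemia) and 0 of 7 (neuroinflammatory), and telencephalic astrocytes 0 of 10. Of the immediate early genes, Junb was at 32.7 ± 1.49, 14.9 ± 5.49 and 26.3 ± 2.67 CPM. In all, 77 list members were called, 47 by DESeq2 and 51 with nuclei under 1000 UMIs left out.

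Part of the variation among the astrocytes recurred in every library. After thinning to 1000 UMIs, the median Fano factor of 4027 genes was 1.04 and the 95th percentile 1.24. Malat1 had the highest mean Fano factor over libraries (7.54 ± 2.83, n = 11, OTV:Malat1 included), followed by Col25a1, a neuronal collagen (4.33 ± 2.13), Trpm3 (3.85 ± 0.370), Luzp2 (3.24 ± 0.318), Lsamp (2.87 ± 0.233) and Apoe (2.73 ± 0.397). Kcnd2, Myoc, Gpc5, Slc1a2, Gria1, Nnat, Nrg1, Erbb4 and Slc4a10 made up the rest of the 15 highest, of which 12 were also among the 15 at 500 UMIs. Col25a1 and Slc4a10, at means of 0.0531 and 0.0501 UMIs per nucleus, lay just above the limit of 0.05 for this ranking. Their Fano factors ran from 1.58 to 8.97 and from 1.18 to 4.66 over the libraries. The part of free RNA in them was not tested.

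Some of these genes fell into sets that rose and fell together over the nuclei of a library, while others, such as Nrg1, went with none. Correlations are Pearson's r across nuclei of equal depth, averaged over 11 libraries. Nuclei of a library are not replicates, so r is given as a description. The channel gene Kcnd2 went with Erbb4, a neuregulin receptor (0.45, range 0.26 to 0.53), and with Trpm3 (0.44, 0.30 to 0.51), and the AMPA receptor subunit Gria1 went with Erbb4 (0.41, 0.30 to 0.46). All 4 were lower where Slc1a2 was high, with r from -0.37 for Erbb4 to -0.31 for Trpm3. Lsamp went with Gpc5 (0.43, 0.35 to 0.47) and against Apoe (-0.30, -0.38 to -0.25), and Apoe went with Myoc, a secreted glycoprotein of fibrous astrocytes (0.35, 0.24 to 0.45). Values of r with Malat1 were weak and differed by dosing group, which was not tested. With Erbb4 the mean r was -0.273 in OTV:Malat1 and -0.174 to -0.109 in the other 3 groups. With Gpc5 it was -0.138 in OTV:Malat1 and 0.0296 to 0.0897 in the others, with Lsamp -0.124 and 0.0546 to 0.0709, and with Apoe 0.0473 and -0.149 to -0.123. The OTV:Malat1 libraries did not overlap with the other 8 for 5 of the 14 genes, which were Gpc5, Lsamp, Apoe, Luzp2 (-0.168 in OTV:Malat1) and Col25a1 (0.140). Values of r with Malat1 were taken for these 14 genes only. No share over all genes can thus be set beside this count, and whether it is unusual was not tested. Col25a1 averaged 0.0531 UMIs per nucleus.

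**Figure D5:**
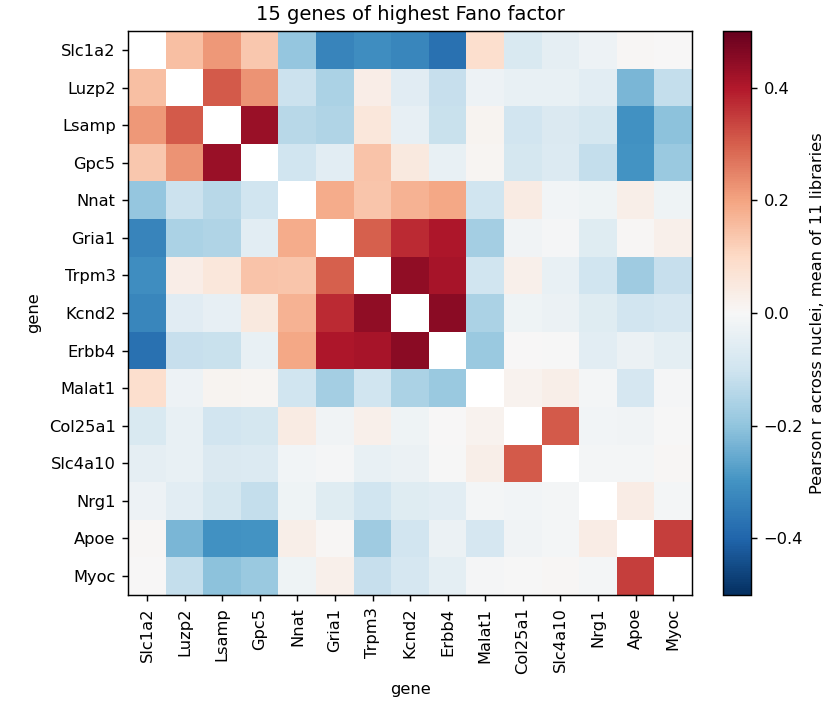
Pearson's r across nuclei thinned to 1000 UMIs for each pair of the 15 genes with the highest Fano factor, as the mean of 11 libraries (red positive, blue negative, diagonal blank). Gria1, Trpm3, Kcnd2 and Erbb4 form a red block with r up to 0.45 and are blue against Slc1a2.

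Nuclei with a Gfap UMI after thinning, 5.63% to 10.6% of a library, carried a set of genes known from fibrous and pial astrocytes. Myoc averaged 0.380 ± 0.133 UMIs per 1000 in nuclei with Gfap and 0.0516 ± 0.0154 in those without (7.36-fold, higher in 11 of 11 libraries). Slc38a1 (4.42-fold), the complement gene C4b (4.19-fold), Igfbp5 (3.004-fold), Id3 (2.82-fold), Aqp4 (2.69-fold) and Apoe (2.07-fold) were higher in 11 libraries, and Vim (2.92-fold) in 10. Gpc5, Trpm3 and Luzp2 stood at 0.576, 0.573 and 0.559 times the level of nuclei without Gfap, lower in 11 libraries. The myelin genes Mobp (1.90-fold, 11 libraries) and Mbp (1.85-fold, 10 libraries) moved the same way, and the part of oligodendrocyte RNA in these values was not tested. Of the 7 oligodendrocyte markers only these are given, and they do not stand for the set.

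Nuclei with an Agt UMI, 4.34% to 8.01% of a library, showed the set of Kcnd2 and Erbb4. Gria1 averaged 1.46 ± 0.365 UMIs per 1000 with Agt and 0.613 ± 0.0729 without (2.38-fold), and Itih3 (2.29-fold), Erbb4 (2.17-fold), Kcnd2 (1.86-fold), Slc6a11 (1.71-fold) and Gabbr2 (1.69-fold) were higher in 11 of 11 libraries. Grm3, the phagocytic receptor gene Mertk and Slc1a2 stood at 0.502, 0.507 and 0.657 times the level without Agt, lower in 11 libraries. Nuclei with an Agt UMI and nuclei with a Gfap UMI were present under every treatment, in shares that overlapped between the groups. A single UMI, which free RNA can also give, placed a nucleus, and the share in thinned nuclei outside the class was not computed. Agt nuclei were 4.66%, 6.24% and 5.73% of OTV:Malat1 replicates 1, 4 and 5 and 8.01%, 4.92% and 4.34% of ATV:BACE1, and Gfap nuclei were 7.34%, 8% and 10.6% and 7.91%, 5.63% and 9.40%.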

How the data were processed

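Single-nucleus RNA of 11 libraries was sequenced after nuclei were isolated by douncing and a sucrose cushion. Per the submitters' processing notes the tools were Cell Ranger 5.0.0 and Seurat 4 with build mm10. The authors deposited 1 matrix of whole-number UMI counts, per the file headers 25938 gene symbols by 110304 nuclei, with no normalization. The deposited metadata give a class name, a cluster, a doublet call, a batch, the percent of UMIs on mitochondrial genes and, as a fraction from 0 to 1, a class prediction score. For filters on nuclei, the sources used here give none.

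Members, gene lists and tests were chosen with earlier results of these data known. Counts were summed per gene and library over the members, 671546 to 2998549 UMIs a library, and 13344 genes passed edgeR's filter on low counts. edgeR 4.0.16 (R 4.3.3) fitted group and replicate number to all 11 libraries with TMM scaling and quasi-likelihood tests, Benjamini-Hochberg adjusted over all genes tested, with a threshold of 0.05. Differences between classes were fitted on sums of both classes per library. Replicate numbers, which match the deposited batch numbers, were used as a block. Same-numbered libraries deviated together: over 7861 genes the correlation of their deviations from the group means was 0.240 to 0.642 in 15 pairs. In 30 pairs of different numbers it was -0.556 to 0.136. Deviations cancel within a group, and those of the 2 Malat1 ASO libraries mirror each other. The values of different numbers therefore follow in part from the centring and are not separate evidence of pairing. Shares were compared by exact two-sided permutation tests. Per-nucleus values were taken after thinning to 1000 UMIs. Python 3.11.15, numpy 2.4.6, scipy 1.17.1 and pandas 2.3.3 were used. Coordinates and gene types come from GENCODE M21 (GRCm38), in which 98.8% of tested symbols matched 1 gene.

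The genes named were Malat1, the markers, the 20 highest by level, the 20 of largest ratio among those of at least 50 CPM, and up to 20 called genes per comparison. Where under 5 were called, the 5 of smallest p whose libraries did not overlap were added. The rule also took the 20 of smallest p between replicates, up to 6 members per list with every called member, and the 15 of highest Fano factor, and the text gives a selection of these. Pairwise replicate contrasts, the share called among genes of at least 50 CPM, the splits by Gfap and Agt and the correlations were chosen after seeing the data. Alternatives were no block, DESeq2 1.42.0, no TMM, Malat1 out of library totals, no low-count filter, each library left out, doublets out, nuclei of at least 1000 UMIs, all nuclei named astrocytes, and a score of at least 0.9. For Malat1 they included the mean of each nucleus' own share with limma 3.58.1, and for low nuclei thinning to 500 UMIs, the 10th percentile and no thinning. The fits were tested on simulated data. A gene of the tables is not reported here.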

Additional observations from a re-analysis of the deposited data

Results flagged for a closer look

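For 14 gene and class pairs the test of the difference itself, the log2 change from ATV:BACE1 to OTV:Malat1 in astrocytes minus that in another class, passed in edgeR after Benjamini-Hochberg adjustment. Malat1 accounted for 2 of them, with -0.91 against neurons and 0.82 against oligodendrocytes. The 12 others had edgeR adjusted p of 0.00858 to 0.0495, and of these DESeq2 called 0 and edgeR without the replicate block 1. All 12 lost the call without ATV:BACE1 replicate 1 and 11 without OTV:Malat1 replicate 1, and 3 to 9 did without any one of the other libraries. None of the 12 genes passed in the astrocytes alone. No cause of these differences was tested.

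Against neurons, the coenzyme Q binding protein gene Coq10b differed by 0.86, with 47.3 CPM in OTV:Malat1 and 26.5 CPM in control astrocytes beside 32.9 and 32.2 CPM in neurons. Junb, an immediate early gene, differed by 1.01, with 26.8 and 23.7 CPM in astrocytes beside 25.7 and 50.6 CPM in neurons. Slc15a2, a peptide transporter gene, differed by 0.71 and the non-coding gene C730002L08Rik by 0.56. Camk2a differed by -0.59, Tiparp, a target of the aryl hydrocarbon receptor, by -0.54 and Gm13052 by -1.68.

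Against oligodendrocytes Cemip2, a hyaluronan-degrading enzyme gene, differed by -1.60, with 17.6 and 20.7 CPM in OTV:Malat1 and control astrocytes beside 40.4 and 15.9 CPM in oligodendrocytes. Against vascular endothelium the astrocyte genes Luzp2 (2.17), Wdr17 (2.15), Gpc5 (1.87) and Acsbg1 (8.01) differed. In the endothelial nuclei Gpc5 was at 106 CPM in OTV:Malat1 and 335 CPM in the control, while in astrocytes it was at 8401 and 7778 CPM. Acsbg1 was listed at 0 in the OTV:Malat1 endothelial nuclei, so its fitted value is no bound.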

How the results depend on the processing

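The Malat1 change in OTV:Malat1 kept its direction and its call under all 21 alternatives, from -1.76 to -1.49 against the control. In nonTV:Malat1 and Malat1 ASO the Malat1 difference ran from -0.043 to 0.189 and from -0.070 to 0.189 when 1 library was left out. Genes other than Malat1 called without the filter on low counts numbered 5 (OTV:Malat1 against control), 3 (nonTV:Malat1), 14 (Malat1 ASO), 7 (OTV:Malat1 against nonTV:Malat1) and 4 (OTV:Malat1 with Malat1 ASO as the reference), with 1 list member each in the third and the fourth comparison. For nonTV:Malat1 the count was 0 with DESeq2, without TMM, with Malat1 out of the totals, with nuclei under 1000 UMIs left out and over all nuclei named astrocytes. For Malat1 ASO it was 0 with DESeq2 and without TMM, and 1 over all nuclei named astrocytes. For OTV:Malat1 against nonTV:Malat1 it was 1 with nuclei under 1000 UMIs left out. Leaving out 1 library gave 0 to 1, 0 to 1, 0 to 10, 0 to 2 and 0 to 1 genes, and 0 to 1 list members for Malat1 ASO. Between replicates DESeq2 called 677 genes and 47 list members, nuclei of at least 1000 UMIs gave 51 list members, and leaving out 1 library gave 930 to 1796 genes and 38 to 85 list members. The cause of these shifts was not tested.

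Without the replicate block the Malat1 change of OTV:Malat1 was -1.62 (edgeR adjusted p = 0.0180), 0 other genes were called in the nonTV:Malat1 and Malat1 ASO comparisons, and the difference from neurons was -0.91 (edgeR adjusted p = 0.116). The pairing changed no other dosing call of Malat1. Genes between replicates had no fit without the block, which is what they test.

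The difference from neurons ran from -0.97 to -0.86 with 1 library left out, and that from oligodendrocytes was 0.43 with nuclei under 1000 UMIs left out. The share of library nuclei in the class, minus the control, ran from -0.976 to 2.72 percentage points (OTV:Malat1) and from -1.99 to 3.41 (Malat1 ASO) with 1 library left out. The share of nuclei named astrocytes ran from -2.09 to 2.41 (nonTV:Malat1), -2.77 to 2.43 (OTV:Malat1) and -2.65 to 3.19 (Malat1 ASO). Without doublets that share turned to -0.243 (nonTV:Malat1) and -0.147 (Malat1 ASO), and at a score of at least 0.9 to 0.420 (OTV:Malat1) and -0.531 (Malat1 ASO). Low nuclei, with the limit set anew from the control libraries left in, ran from -4.19 to 3.74 (nonTV:Malat1) and -3.23 to 3.18 (Malat1 ASO). At that score Cemip turned to 0.28 (OTV:Malat1 against nonTV:Malat1) and Gpc5, astrocytes minus endothelium, to -0.61. Without TMM the median log2 change of all genes in OTV:Malat1 was 0.11 with nonTV:Malat1 and 0.13 with Malat1 ASO as the reference, beside 0.01 and 0.00 with TMM. Depth limits OTV:Malat1 replicate 5 most, with 671546 UMIs.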
